A study of Homo sapiens with 2 samples.

Results

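Mitochondria carry ribosomes of their own, which translate the few mRNAs of the mitochondrial genome, all for subunits of the respiratory chain and ATP synthase. The rRNAs of these ribosomes are made inside the organelle, whereas all of their proteins are encoded in the nucleus, made in the cytosol and imported. Genes with symbols starting in MRPL belong to the large subunit and most of those starting in MRPS to the small subunit, and MALSU1 encodes a factor that binds the large subunit protein uL14m (MRPL14) while the subunit is being built. The genes described here were the protein-coding genes of GENCODE v29 with a symbol of MRPL or MRPS followed by a digit, together with MALSU1. The rule gave 79 of the 49675 genes listed, and has no measured value in it, although the members were settled on with earlier results of these data known. Of these, 77 had a mean of at least 1 FPKM over both libraries, as did 11221 genes in all, of which 10116 were protein-coding. By known position in the ribosome, 50 of the 77 were large subunit and 25 small subunit genes. The others were MALSU1 and MRPS36, which encodes a subunit of the 2-oxoglutarate dehydrogenase complex in spite of its symbol.

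The study sequenced RNA of MDA-MB-231, a human triple-negative breast cancer line, in 2 libraries. One was from cells with stable shRNA knockdown of RBMS1, an RNA-binding protein, and the other from control cells, both made with the lentiviral vector pLKO.1 and puromycin selection, the control with the vector alone. Which hairpin the sequenced knockdown line carried is not stated in the sources used here. Neither group had a second library, hence no standard deviation or test could be given, and each difference is between these 2 libraries and not shown for the conditions. The values are FPKM, that is, fragments per kilobase of transcript relative to all mapped fragments, summed over the transcripts of a gene. The ratio of a gene is log2((knockdown + 1) / (control + 1)), and 2-fold means a ratio of at least 1 in size.

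RBMS1 itself stood at 3.76 FPKM in the knockdown and 24.1 in the control library, 15.6% of the control value. The markers of the line were present in both, with VIM at 496 and 563, CD44 at 154 and 204, EGFR at 26.1 and 33.0, KRT8 at 160 and 122 and KRT18 at 162 and 190 FPKM in knockdown and control. ESR1, PGR and CDH1, which this line lacks, were at most 0.0996 FPKM, the leukocyte and endothelial markers PTPRC and PECAM1 at most 0.115, the fibroblast marker COL1A1 at most 0.797, and the erythroid HBB was listed at 0. In bulk RNA, fewer cells of a type and less RNA per cell cannot be told apart.

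The levels of most mitochondrial ribosomal protein genes differed little between the knockdown and the control library. The median member stood at 24.8 FPKM in the knockdown and 24.4 in the control, above the median protein-coding gene at 9.20 and 9.14. At least 10 FPKM was reached by 66 of the 77 members in the knockdown and 65 in the control, or 85.7% and 84.4%, against 47.1% and 47.0% of protein-coding genes. The median ratio of the members was 0.03, beside 0.02 for all genes, with 45 members higher and 32 lower in the knockdown library and 5921 and 5300 of all genes. After centring on genes with a mean of at least 10 FPKM, 38 members were higher and 39 lower, and 5426 and 5795 of all genes. Ratios within 0.25 of 0 were found for 59 of the 77 members, 76.6%, and for 60.2% of all genes. All genes had a lower median, of 8.20 FPKM in the knockdown and 8.06 in the control, and were not matched to the members for level. In gene lists described below the share was 88.0% for cytosolic ribosomal proteins, 69.3% for oxidative phosphorylation subunits and 40% for mitochondrial ribosomal proteins under other symbols. The median ratio was 0.02 over the large subunit genes and 0.03 over the small subunit genes.

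Among the 76 members above 0 in both libraries, MRPL50 and MRPL2 were at least 2-fold lower in the knockdown, where 168 of all 10924 such genes, 1.54%, were so. At least 2-fold higher were 2 members, MRPS36 and MALSU1, where 171 of the 10924, 1.57%, were so. MRPL11 was listed at 0 in the knockdown and is given apart, as one of 297 genes listed at 0 in one library. MRPL51 and MRPS14, also genes of the ribosome, were listed at 0 in both libraries. With genes listed at 0 counted, 3 members were lower and 2 higher, where 306 of all 11221 genes, 2.73%, were lower and 330, 2.94%, higher. Neither MRPS36 nor MALSU1 encodes a protein of the finished ribosome. Of the 75 members that do, 0 were at least 2-fold higher, beside the 2.94% of all genes. MALSU1 had been added to the symbols by name, with earlier results known, so nothing is read from its count. MRPL50, MRPL2 and MRPL11 are genes of the large subunit. Which genes passed depended on the transcripts summed, and over reference transcripts alone the small subunit gene MRPS18C was among the lower, listed at 0 in the knockdown and at 13.5 FPKM in the control. In that setting the large subunit gene MRPL50 was among the higher, with a ratio of 1.04, and MRPS36, at -0.16, was not. Cufflinks writes an interval for each value, which covers the uncertainty within a library only. These intervals did not overlap between the libraries for 18 members, 11 higher and 7 lower, which is 23.4% of the members and near the 24.4% of all genes.

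In MRPL2, MRPL50, MRPS36 and MALSU1, the 4 members past 2-fold and above 0 in both libraries, a different transcript held most of the FPKM in each library, and MRPL11 had no transcript above 0 in the knockdown. The transcript with the highest FPKM was the same in both libraries for 66 members and was not for 11, namely MRPL2, MRPL11, MRPL14, MRPL24, MRPL33, MRPL44, MRPL50, MRPS18C, MRPS30, MRPS36 and MALSU1. Of the 66, none passed 2-fold, and their largest ratio was 0.62, in MRPS6. This split rests on the same FPKM as the ratios, so a gene whose FPKM moved between transcripts falls among the 11 by construction. Nothing is therefore read from none of the 66 passing. Over all genes above 0 in both libraries, the top transcript was the same for 8147 and not for 2777, and 2-fold was passed by 152 of the former and 187 of the latter. The other 297 genes were listed at 0 in one library and so had no top transcript there. FPKM divides by transcript length, so the same fragments give a higher value on a short transcript. To set this apart, FPKM was also multiplied by the transcript's full length in kilobases before the sum over the gene, here called length-weighted FPKM. It is an approximate measure of the gene's share of all fragments. Where Cufflinks divided by less than the full length, short transcripts weigh too much on this scale, which was not corrected for. On that scale 0 of the 76 members above 0 in both libraries were at least 2-fold lower or higher, against 195 genes, 1.79%, and 163 genes, 1.49%, of the 10924. With genes listed at 0 counted, MRPL11 was the 1 member lower, against 320 genes, 2.85%, lower and 312 genes, 2.78%, higher of all genes. The largest ratio of the members above 0 in both libraries went from 2.11 in FPKM, for MALSU1, to 0.77 in length-weighted FPKM, for MRPS36.

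**Figure D1:**
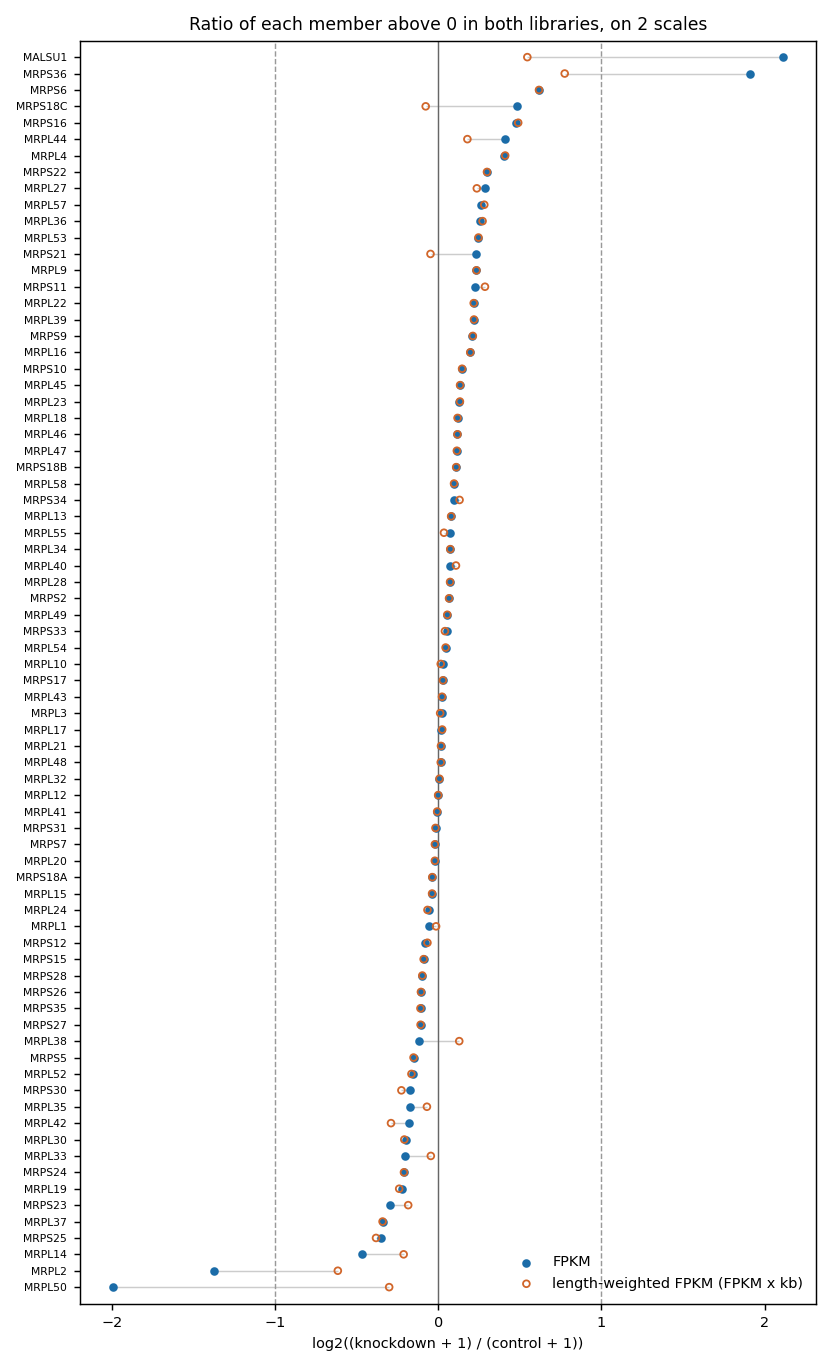
Ratio of the 76 members above 0 in both libraries, as log2((knockdown + 1) / (control + 1)), ordered by the ratio in FPKM (filled points), with the ratio in length-weighted FPKM as open circles and dashed lines at 2-fold. The 2 scales differ by more than 0.5 for MRPL2, MRPL50, MRPS18C, MRPS36 and MALSU1, and all open circles lie inside the dashed lines.

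MRPL11 (ENSG00000174547, minus strand, chr11:66435075-66466738 in GRCh38) encodes uL11m, a protein of the stalk base where translation factors dock. The control library held 69.5 FPKM of it, with an interval of 64.9 to 74.4, and the knockdown library listed it at 0. All of the control value lay on 1 transcript, ENST00000534488, which is 812 bases long and annotated as a target of nonsense-mediated decay, the pathway that degrades mRNAs with an early stop codon. The 4 transcripts annotated as protein-coding were listed at 0 in both libraries. Since the gene is listed at 0 in one library, no fold is given. ENST00000534488 parts from the coding transcript ENST00000310999 at the start of exon 3, at chr11:66437350-66437443 in the coding transcript, which in ENST00000534488 begins 8 bases further in. The sequences below run 5′ to 3′ from the last 15 bases of exon 2 into exon 3, with the 8 bases that only the coding transcript holds in capitals.
ENST00000310999: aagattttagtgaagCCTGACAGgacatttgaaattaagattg
ENST00000534488: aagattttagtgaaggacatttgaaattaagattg
The remaining differences were a first exon of 195 in place of 217 bases and a last exon of 275 in place of 1038 bases. All other sequence of ENST00000534488 is contained in the coding transcript.

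MRPL2 (ENSG00000112651, minus strand, chr6:43054029-43059806) encodes uL2m, which lies close to the catalytic centre of the large subunit. It stood at 19.4 FPKM in the knockdown and 51.9 in the control library, a ratio of -1.38. The coding transcript ENST00000388752 was higher in the knockdown, at 19.4 against 14.4 FPKM. The other 37.5 FPKM of the control lay on ENST00000480286, a transcript of the retained intron class of 661 bases that was listed at 0 in the knockdown library. In length-weighted FPKM the gene stood at 30.8 and 47.7, a ratio of -0.62. ENST00000480286 ends 5 bases into the intron after exon 5, at chr6:43055892-43055896, as shown with the last 20 bases of exon 5 followed in capitals by the first 20 bases of exon 6 in the coding and by the intron bases in the other transcript.
ENST00000388752: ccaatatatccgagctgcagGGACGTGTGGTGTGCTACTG
ENST00000480286: ccaatatatccgagctgcagGTATG

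MRPL50 (ENSG00000136897, minus strand, chr9:101387633-101398614) encodes mL50, a protein particular to the mitochondrial ribosome. It stood at 5.29 FPKM in the knockdown and 24.0 in the control library, a ratio of -1.99. All of the knockdown value lay on its annotated transcript ENST00000374865, of 3332 bases, which stood lower in the control at 2.05 FPKM. The control library held 22.0 FPKM on a transcript assembled by Cufflinks from the reads, with the same intron and a last exon of 564 in place of 3218 bases. Over reference transcripts alone the ratio was 1.04, the opposite direction, and in length-weighted FPKM the gene stood at 17.6 and 21.9, a ratio of -0.30.

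MALSU1 (ENSG00000156928, plus strand, chr7:23298739-23311729) had the highest ratio in FPKM among the members, at 26.7 FPKM in the knockdown and 5.41 in the control library, a ratio of 2.11. Of the knockdown value, 23.0 FPKM lay on ENST00000287543, a transcript of the retained intron class of 572 bases that was listed at 0 in the control. The coding transcript ENST00000466681, of 3044 bases, was lower in the knockdown, at 3.73 with an interval of 3.34 to 4.13, than in the control, at 5.41 with an interval of 4.92 to 5.91. The 2 intervals did not overlap, and the ratio over coding transcripts was -0.44. In length-weighted FPKM the gene stood at 24.5 and 16.5, a ratio of 0.55. The 2 transcripts share exon 3 up to chr7:23307949, after which ENST00000287543 runs 41 bases into the intron and ends, while ENST00000466681 goes on with exon 4, of 2374 bases. The last 20 bases of the shared exon 3 are followed in capitals by the 41 bases that come next in each.
ENST00000466681: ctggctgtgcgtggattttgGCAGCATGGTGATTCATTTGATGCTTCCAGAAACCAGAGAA
ENST00000287543: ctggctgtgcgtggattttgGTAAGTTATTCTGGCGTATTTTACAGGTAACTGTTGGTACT
MRPL14, which encodes the large subunit protein that MALSU1 binds, was higher in the control, at 88.4 FPKM against 63.7 in the knockdown, a ratio of -0.47. Here too the control held an assembled transcript, with 45.4 FPKM and 653 bases, beside the coding transcript ENST00000372014 of 959 bases. The coding transcript was higher in the knockdown, at 63.7 against 43.0 FPKM, and in length-weighted FPKM the ratio of MRPL14 was -0.21.

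MRPS36 (ENSG00000134056, plus strand, chr5:69217760-69230129) stood at 35.0 FPKM in the knockdown and 8.59 in the control library, a ratio of 1.91. The coding transcript ENST00000256441, of 1286 bases, was at 7.59 in the knockdown and 8.59 in the control, with overlapping intervals of 6.68 to 8.50 and 7.61 to 9.57. The difference lay in an assembled transcript of 359 bases, with 27.4 FPKM, in the knockdown library. This transcript begins with an exon of 2 bases and ends after 109 of the 922 bases of the last exon. In length-weighted FPKM MRPS36 stood at 19.6 and 11.0, a ratio of 0.77.

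Taking the 77 members together, coding transcripts held 87.9% of their FPKM in the knockdown and 79.8% in the control library. Over protein-coding genes as a whole the coding share was 83.5% and 82.4%. Assembled transcripts held 3.79% and 8.75% of the members' FPKM, and of the 199 FPKM on them in the control, 93.8 lay on MRPL33, 45.4 on MRPL14 and 22.0 on MRPL50. Transcripts of the nonsense-mediated decay class held 0% and 3.06%, the latter all from MRPL11. For protein-coding genes as a whole, assembled transcripts held 10.4% and 11.1% and the nonsense-mediated decay class 1.59% and 1.71%. The FPKM of the members summed to 2204 in the knockdown and 2273 in the control, and their length-weighted FPKM to 2617 and 2659. Over the 76 members above 0 in both libraries, which leaves out MRPL11, the sums were 2204 and 2203 FPKM. In length-weighted FPKM they were 2617 and 2602. What gave rise to the shift of FPKM between transcripts was not tested.

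Among large subunit genes, MRPL33, which encodes bL33m, was the most highly expressed member, at 164 FPKM in the knockdown and 189 in the control library. Its intervals of 150 to 179 and 169 to 210 overlapped, and its ratio was -0.20. Over reference transcripts the ratio was 0.78, since 93.8 FPKM of the control lay on an assembled transcript. The stalk that recruits translation factors is built of MRPL10 and MRPL12, which is also known to bind the mitochondrial RNA polymerase. MRPL10 stood at 11.5 and 11.2 FPKM in knockdown and control, and MRPL12 at 64.7 in both. The whole MRPL12 value lay on a reference transcript with an identifier outside GENCODE v29, ENST00000541223, which shares introns with the gene, and the same held for MRPL22, on ENST00000614620, at 42.5 and 36.4 FPKM. MRPL24, which encodes uL24m, stood at 58.2 and 60.6 FPKM, MRPL20, for bL20m, at 48.0 and 48.7, and MRPL36, for bL36m, at 56.3 and 47.0. MRPL37, for mL37, was lower in the knockdown, at 43.8 with an interval of 41.2 to 46.7, than in the control, at 55.6 with an interval of 52.5 to 59.1, a ratio of -0.34 on both scales. Its top transcript was coding and the same in both libraries. MRPL51 was listed at 0 in both libraries, while NCAPD2, which overlaps it on the opposite strand, was at 32.1 and 44.7 FPKM.

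The direction turned in other large subunit genes when assembled transcripts were left out. MRPL38, for mL38, stood at 17.2 FPKM in the knockdown and 18.8 in the control, with a ratio of -0.12 that became 0.73 over reference transcripts. MRPL1, for uL1m, went from -0.06, at 14.5 and 15.1 FPKM, to 0.67. MRPL44, whose protein mL44 has a fold of the RNase III family, went from 0.41, at 9.40 and 6.82 FPKM, to -0.51, and its ratio was 0.18 in length-weighted FPKM. In MRPL1 and MRPL38 the assembled transcript was in the control and in MRPL44 in the knockdown library, as in MRPL14 and MRPS36 respectively.

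Some members do not sit where their names or sources would place them. MRPS30, which encodes mL65 of the large subunit, stood at 15.5 FPKM in the knockdown and 17.6 in the control, a ratio of -0.17. MRPL58, a peptidyl-tRNA hydrolase that was taken into the large subunit, stood at 25.1 and 23.4 FPKM. The 3 genes of the MRPS18 family encode proteins of different places. MRPS18A, for mL66 of the large subunit, stood at 19.0 and 19.6 FPKM, and MRPS18B, for mS40 of the small subunit, at 39.1 and 36.2, with overlapping intervals in both cases. MRPS18C, for bS18m of the small subunit, stood at 19.2 and 13.5 FPKM, a ratio of 0.48. In the knockdown all of the MRPS18C value lay on an assembled transcript of 1090 bases, with the coding transcript ENST00000295491, of 1643 bases, listed at 0. In the control all of it lay on ENST00000295491, and in length-weighted FPKM the gene stood at 21.0 and 22.2, a ratio of -0.08.

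Among small subunit genes, MRPS6, which encodes bS6m, had the largest ratio, at 51.1 FPKM in the knockdown, with an interval of 47.8 to 54.5, and 32.9 in the control, with an interval of 30.4 to 35.6. The ratio of 0.62 was the same in length-weighted FPKM, as 1 coding transcript, ENST00000399312, held the value in both libraries. MRPS6 was also in the table for which the authors ran both libraries through Cuffdiff jointly, where this transcript stood at 91.2 and 59.1 FPKM, again a ratio of 0.62. Genes that overlap MRPS6 on the same strand, SLC5A3 and AP000317.2, summed to 13.7 and 8.04 FPKM, and their part in the MRPS6 values was not tested. MRPS16, for bS16m, stood at 27.8 and 19.7 FPKM, a ratio of 0.48, with the same coding transcript on top and intervals of 26.3 to 29.7 and 18.5 to 21.3. The overlapping genes DNAJC9 and DNAJC9-AS1 were at 24.2 and 21.0 FPKM together. MRPS24, for uS3m, was the highest small subunit gene, at 87.7 and 102 FPKM, a ratio of -0.21. MRPS10, for uS10m, stood at 53.4 and 48.2 FPKM, and MRPS33, for mS33, at 45.1 and 43.4. MRPS25, for mS25, was the small subunit gene with the lowest ratio, -0.35, at 7.20 and 9.45 FPKM, and MRPS23, for mS23, followed with -0.30, at 23.8 and 29.5. MRPS14 was listed at 0 in both libraries, and CACYBP, on the opposite strand, at 30.4 and 25.1 FPKM. As strand is not stated in the sources used here, reads of overlapping genes cannot be told apart.

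Apart from MRPS6, the joint table held few values on the members. It lists 7236 transcripts, of which 18 belonged to 15 members, and 17 of these 18 were listed at 0 in both of the single-library lists. Of the latter, the highest in the joint table was ENST00000592514 of MRPL4, at 10.8 FPKM in the knockdown and 3.51 in the control. MRPL4, which encodes uL4m, was also higher in the knockdown by its own gene value, at 22.7 and 16.9 FPKM, a ratio of 0.41 with intervals of 21.0 to 25.0 and 15.4 to 19.0.

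Across the 76 members above 0 in both libraries, Spearman's rho between the libraries was 0.874 in FPKM, beside 0.963 across 9941 protein-coding genes. In length-weighted FPKM it was 0.963 and 0.968. Across the 66 members with the same top transcript rho was 0.964 in FPKM and across the 10 others 0.552, a split that itself rests on the values compared. These are correlations across genes, which share their library and are not independent replicates. Reads of these genes could also be assigned to their pseudogenes. Summed over the annotated pseudogenes of a member, the highest values were 2.01 FPKM in the knockdown, for MRPS31, which itself stood at 7.09, and 2.09 in the control, for MRPS6, and the 5 pseudogenes of MRPS36 were listed at 0.

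The members were short genes of few exons. The leading transcript was 1147 bases long in the median, against 2878.5 for the 10112 protein-coding genes measured, with 5 exons against 9 and a gene span of 12.4 kb against 34.4 kb. The GC content of these transcripts was 50.7% against 48.3%. The 79 genes were spread over the genome, with no more than 8 on any chromosome, a number reached on chromosomes 1, 2 and 17.

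Nuclear genes for mitochondrial proteins are known to be driven in part by NRF1 and by factors of the ETS family such as GABPA. Promoters of RefSeq on GRCh38.p14, from 250 bases before to 50 after the start of the gene, were at hand for 70 of the 79 members. The ETS core CCGGAAG, on either strand, was in 30 of the 70, or 42.9%, against 21.4% of the 8146 promoters of protein-coding genes with at least 1 FPKM and 10.7% of all 27305 promoters. The NRF1 core GCATGCG, on either strand, was in 7 of the 70, or 10%, against 6.97% and 4.13%. Both were in 2.86% of the members, 1.77% of the expressed genes and 0.78% of all promoters. The MRPS18 genes and MALSU1 are shown as examples, with the core in capitals as read 5′ to 3′ on the strand of the gene.
MRPS18A, ETS core on the gene strand, chr6:43687804-43687833, minus strand: ggcgctacgttCCGGAAGcggaaatggacg
MRPS18B, NRF1 core on the gene strand, chr6:30617806-30617835, plus strand: agtttcctgaaGCATGCGcagttgcctttc
MRPS18C, ETS core on the gene strand, chr4:83455825-83455854, plus strand: gggctcgcggaCCGGAAGcacgcataaact
MRPS18C, NRF1 core on the gene strand, chr4:83455913-83455942, plus strand: aaaggtgctgcGCATGCGtattgaaaaacc
MALSU1, ETS core on the other strand, chr7:23299193-23299222, plus strand: cccaagtagctCTTCCGGgtcactgcagtc
A match to these letters is a description of the sequence and not a binding site.

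The other genes of mitochondrial translation were given by lists. Of mitochondrial ribosomal proteins under other symbols, all 5 were measured, with a median ratio of 0.30, beside 0.03 for the members and 0.02 for all genes. This median was 0.21 in length-weighted FPKM and 0.04 over reference transcripts. Of these 5, 4 were higher in the knockdown, and 3 over reference transcripts. PTCD3 was at least 2-fold higher, as were 1.57% of the genes above 0 in both libraries, and 0 were 2-fold lower. DAP3, a GTP-binding protein of the small subunit, stood at 68.5 FPKM in the knockdown and 55.4 in the control, CHCHD1 at 29.9 and 23.7, AURKAIP1 at 61.0 and 59.1, and GADD45GIP1 of the large subunit at 45.2 and 53.9. PTCD3, a pentatricopeptide repeat protein of the small subunit, stood at 27.0 and 12.1 FPKM, a ratio of 1.10 that was -0.54 over reference transcripts and 0.21 in length-weighted FPKM.

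Of the mitochondrial translation factors, 15 of 16 were measured, with a median ratio of 0.01. C12orf65, which rescues stalled mitochondrial ribosomes, was listed at 0 in the knockdown and at 10.6 FPKM in the control. At least 2-fold higher were 0 factors, beside 2.94% of all genes. The highest ratio was that of TSFM, the exchange factor of the elongation factor Tu, at 4.94 and 2.42 FPKM, or 0.80, and 1.30 in length-weighted FPKM. Of the ribosome assembly factors, 24 of 27 were measured, with a median ratio of 0.04. At least 2-fold higher were 2 and lower 0, beside 2.94% and 2.73% of all genes with those listed at 0 counted. RPUSD4, a pseudouridine synthase of mitochondrial rRNA, was at 17.5 FPKM in the knockdown and listed at 0 in the control, and MTG2, a GTPase of large subunit assembly, at 18.4 and 8.41, a ratio of 1.05 that was 0.10 in length-weighted FPKM. The lowest ratio was that of the rRNA methyltransferase NSUN4, at 2.24 and 3.42 FPKM, or -0.45. Of the mitochondrial aminoacyl-tRNA synthetases and their partners, all 20 were measured, with a median ratio of -0.08. HARS2, for histidine, was listed at 0 in the knockdown and at 10.4 FPKM in the control, and the highest ratio was that of VARS2, for valine, at 5.85 and 3.65 FPKM, or 0.56.

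The subunits of oxidative phosphorylation encoded in the nucleus, which join the proteins that mitochondrial ribosomes make, were measured for 75 of 90, with a median ratio of 0.09. At least 2-fold lower were 2, among them ATP5MG of the ATP synthase with the lowest ratio of -1.58, at 50.7 and 154 FPKM, and 1 was higher, NDUFS6 of complex I, at 73.0 and 28.7 FPKM, or 1.32. Of all genes above 0 in both libraries, 1.54% were lower and 1.57% higher. In length-weighted FPKM ATP5MG and NDUFS6 had ratios of -0.48 and 0.51. On that scale 0 of the 75 passed 2-fold, beside 1.79% lower and 1.49% higher of all genes above 0 in both libraries. Proteins of the cytosolic ribosome were measured for 83 of 87, at a median of 592 FPKM in the knockdown and 606 in the control, with a median ratio of -0.07. Past 2-fold were 0 of them, beside the 1.54% lower and 1.57% higher of genes above 0 in both libraries. Their lowest ratio was that of RPSA, -0.48, at 392 and 548 FPKM, and their highest that of RPL13A, 0.65, at 871 and 556. No mRNA or rRNA gene of the mitochondrial genome itself was among the genes listed, so none could be described.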

How the data were processed

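Total RNA of MDA-MB-231 cells had been sequenced in 2 libraries, 1 per group, and groups were taken from the labels. Per the labels, the authors used TopHat2 2.0.9, Bowtie2 2.0.6, Cufflinks 2.1.1 and Cuffdiff 2.1.1. The authors deposited, for each library, transcripts with FPKM, an interval and coverage, and a joint table with FPKM of both libraries and the authors' own fold changes and p-values, which were not used. No counts are given, so the depth in reads is unknown, and strand and genome build are not given in the sources used here. Of the identifiers shared with GENCODE v29 (GRCh38), 98.1% had the annotated start in each library, so its coordinates were used.

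With Python 3.11.15, numpy 2.4.6 and pandas 2.3.3, FPKM was summed per gene over GENCODE v29 transcripts, other reference transcripts and assembled transcripts that shared at least 1 intron with the gene, on the same strand. Interval bounds were summed too. Of 60329 and 64210 assembled transcripts in knockdown and control, 6507 and 6583 were placed in this way. A pseudocount of 1 and a minimum mean of 1 FPKM were used. The summing was tested on simulated data. Members, gene lists and the genes named (members listed at 0, past 2-fold, highest, with the largest ratios, turning direction or of special position, and the extremes of each list) were chosen with earlier results of these data known. MRPL4, MRPL22, MRPS31 and genes overlapping a member were named after their values were seen.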

Additional observations from a re-analysis of the deposited data

How the results depend on the processing

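Over all alternatives the median ratio of the members lay between -0.0022 after centring on genes with a mean of at least 10 FPKM and 0.0417 after upper quartile scaling. It moved by less than 0.271, the median half-width of the members' within-library intervals. These intervals belong to single genes and do not give the uncertainty of a median over the members. The counts of 3 members at least 2-fold lower and 2 higher were the same under the other pseudocounts, filters, scalings and choices of transcript fixed at the start, except that 2 were lower among genes above 0 in both libraries. Equal counts did not always mean equal genes, as over reference transcripts MRPS18C, at 0 in the knockdown, took the place of MRPL50 among the lower and MRPL50 that of MRPS36 among the higher. In 2 settings added after the data were seen they were not: in length-weighted FPKM 1 was lower and 0 higher, and over coding transcripts of GENCODE v29 alone, with 74 members, 1 was lower, MRPS18C, and 1 higher, MRPL50. Members listed at 0 in one library numbered 1 in the main setting, 2 over reference transcripts only, 4 with the leading reference transcript only and 0, by construction, among genes above 0 in both.

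The direction turned for MRPL50, to 1.04 over reference transcripts, with the leading reference transcript and over coding transcripts, and for MRPS36, to -0.16 in the same 3 settings. Over coding transcripts it also turned for MALSU1, to -0.44, and MRPL2, to 0.40. Over reference transcripts the sign changed in 11 members in all. Among those short of 2-fold in the main setting, MRPL14 went from -0.47 to 0.56, MRPL33 from -0.20 to 0.78, MRPL38 from -0.12 to 0.73 and MRPL1 from -0.06 to 0.67. MRPL44 went from 0.41 to -0.51, MRPS21 from 0.23 to -0.31, MRPL3 from 0.02 to -0.17 and MRPS10 from 0.14 to -0.02. MRPS18C went from 0.48 to 0 FPKM in the knockdown against 13.5 in the control. Transcripts left out by construction account for these values, and what put FPKM on them was not tested.

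Counts over all genes, 306 lower and 330 higher, became 131 and 124 with a pseudocount of 5 FPKM, 141 and 140 with a mean of at least 5 FPKM, 661 and 653 in TPM, 505 and 545 over reference transcripts, 477 and 500 with the leading reference transcript, and 168 and 171 among genes above 0 in both. With 1 library per group, leaving out a library leaves nothing to compare. No paired analysis was possible because each group has 1 library. Reads behind a value are unknown, so how depth limits low members could not be set.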
